A study of Mus musculus with 103 samples.

Results

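Rspo1, Rspo2, Rspo3, Dkk1, Dkk2, Sfrp1, Sfrp2, Frzb, Axin2 and Lef1 encode secreted modulators and transcriptional targets of Wnt signalling. They were taken by gene symbol and not by a cut on their values, although the list was chosen with earlier results of these data known. They are 10 of the 19938 genes measured in an array atlas of the early mouse face. Each was read by 1 probe set: 10508012 for Rspo1 (chromosome 4), 10428388 for Rspo2 (chromosome 15), 10368495 for Rspo3 (chromosome 10), 10467006 for Dkk1 (chromosome 19), 10496125 for Dkk2 (chromosome 3), 10570957 for Sfrp1 (chromosome 8), 10492798 for Sfrp2 (chromosome 3), 10484307 for Frzb (chromosome 2), 10382228 for Axin2 (chromosome 11) and 10496091 for Lef1 (chromosome 3).

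Wnt ligands bind Frizzled receptors and the coreceptors Lrp5 and Lrp6, and in the canonical branch this stabilises β-catenin, which enters the nucleus and activates genes together with TCF and LEF factors. R-spondins bind Lgr receptors and the ligases Rnf43 and Znrf3, which would otherwise remove Frizzled from the cell surface, and so raise the response to a given amount of ligand. Dickkopf proteins act on Lrp5 and Lrp6, whereas secreted Frizzled-related proteins, Frzb among them, can bind the ligands outside the cell. Axin2, a scaffold of the β-catenin destruction complex, and Lef1, a nuclear partner of β-catenin, are themselves induced by the pathway and are widely read as its targets. In the head, Wnt signalling is known for roles in neural crest induction, brain patterning and outgrowth of the facial prominences.

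The embryos were untreated outbred CD1 mice, staged by taking the day of the plug as E0.5, and single regions were cut from frozen sections by laser capture, with 1 whole-transcript array per library. The 22 groups held 4 to 7 libraries each. At E8.5 there were 18 libraries of mesenchyme, caudal neural epithelium, floor plate and non-floor plate neural epithelium. At E9.5 there were 34, of otic vesicle, epidermal ectoderm, mandibular arch, maxillary arch, neuroepithelium and cranial mesenchyme. At E10.5 there were 50, of Rathke's pouch, olfactory pit, neuroepithelium under the medial and under the lateral nasal prominence, midline neuroepithelium, a control neuroepithelium that does not flank the facial eminences, medial and lateral nasal prominence, mandibular and maxillary arch and the epidermal ectoderm of each arch. Values are log2 ratios to a baseline that the sources used here do not describe, so that 0 marks the baseline and not the absence of RNA, and levels cannot be compared between genes. In these bulk samples, fewer cells of a type and less RNA per cell cannot be told apart. The labels do not tie libraries to embryos, so libraries may share an embryo and the p-values below may be too small.

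Some E10.5 libraries went against their labels when checked with marker lists, each given as the mean log2 ratio of its measured markers. Libraries labelled mandibular arch had 1.75 to 1.97 for 3 frontonasal markers and -0.23 to 1.41 for 5 jaw markers. Those labelled mandibular arch epidermal ectoderm had 1.36 to 1.74 for 8 mesenchyme markers and -0.49 to 0.07 for 8 surface ectoderm markers, and replicates 1 and 3 were closer to each other (r = 0.947) than any other 2 libraries of a group. Those labelled maxillary arch had a median of 2.05 for surface ectoderm, with a range of -0.71 to 2.79. These 3 groups are named below by their labels only. The 4 libraries of neuroepithelium under the medial prominence carry titles that name the lateral one, and results that use them are also given without them where a call changes. Neural libraries otherwise carried their markers: 8 neural epithelium markers averaged 1.497 to 2.36 under the lateral prominence, 1.84 to 2.31 under the medial one and 1.89 to 2.49 in control neuroepithelium.

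Across the 22 groups all 10 genes differed somewhere by limma's moderated F test at a Benjamini-Hochberg adjusted p under 0.05, which 59.0% of all genes also did. The adjusted p ran from 8.3e-12 for Rspo1 to 0.046 for Dkk2. Group means spanned 4.59 on the log2 scale for Rspo3, 4.25 for Sfrp1, 3.93 for Frzb, 3.57 for Dkk1, 3.23 for Rspo1, 2.99 for Sfrp2, 2.34 for Rspo2, 1.47 for Lef1, 0.89 for Axin2 and 0.80 for Dkk2, beside a median of 0.80 over all genes. The secreted factors thus ranged further than the 2 targets, with Dkk2 as the exception. Over 23 comparisons of regions or stages the 10 genes gave 24 calls in 230 tests, or 10.4%, where 3.53% of all gene tests were called, and each of the 10 was called at least once, as were 53.6% of all genes. Because many of these comparisons share groups, the calls are not independent of each other. Where no member was called, the count of members at an unadjusted p under 0.05 is given below. The share of all genes at that looser threshold was not computed, so these counts cannot be set against the shares called.

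**Figure D1:**
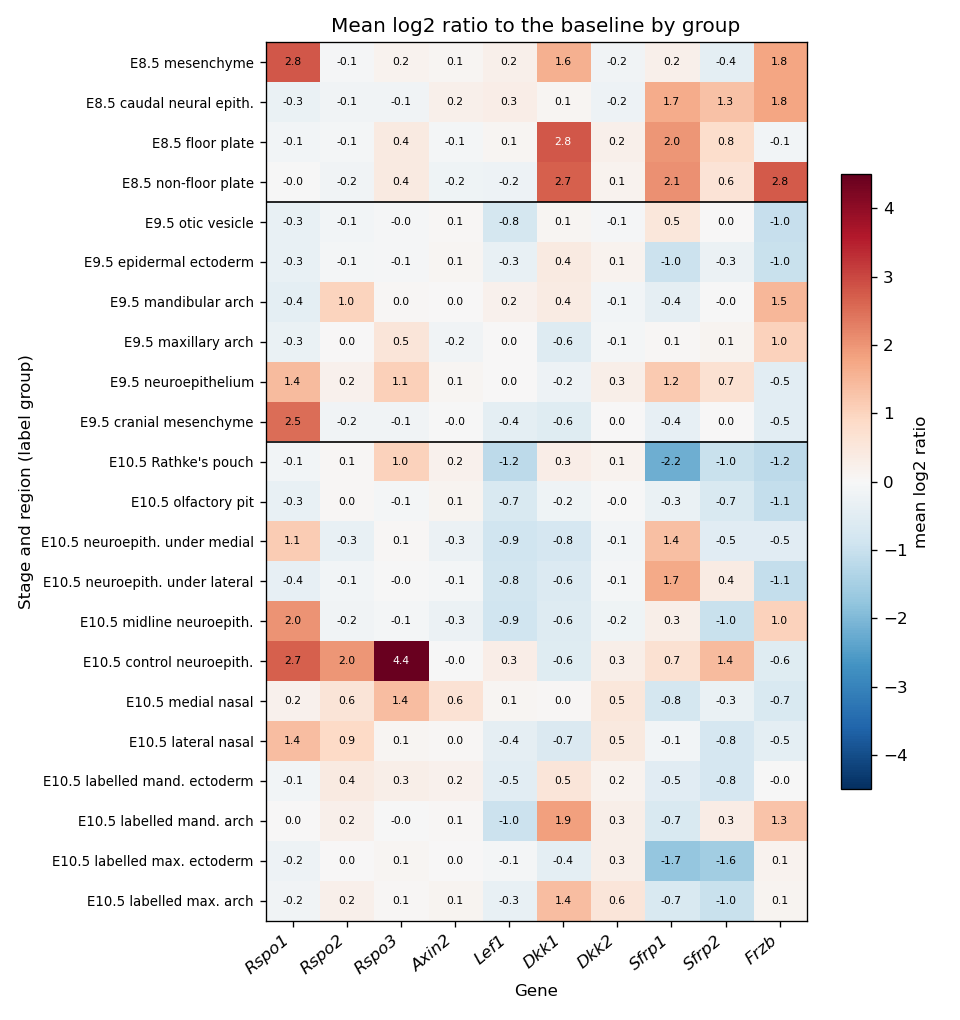
Mean log2 ratio of each gene (columns) in each of the 22 groups (rows, by stage), with the colour running from blue below the baseline to red above it. Rspo3 in E10.5 control neuroepithelium (4.4) is the highest cell, and Axin2 (-0.25 to 0.64) and Dkk2 (-0.25 to 0.56) stay nearest to 0.

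**Figure D2:**
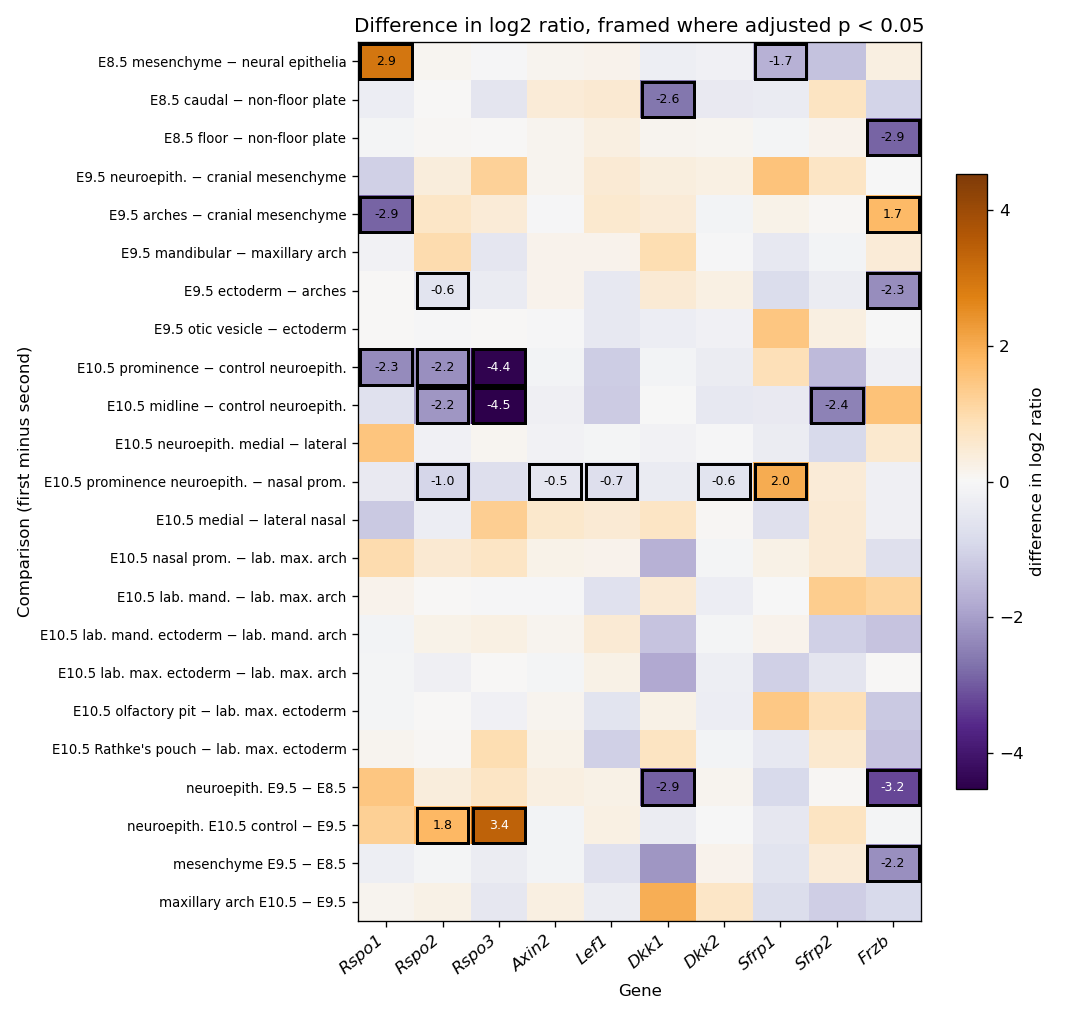
Difference in log2 ratio for each gene (columns) in each comparison (rows, first group minus second), purple where lower in the first and orange where higher, framed with its value where limma's adjusted p was under 0.05. The framed cells lie mainly in the R-spondin and Frzb columns.

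Among the R-spondins, Rspo1, known for its role in ovary formation, was high in the mesenchyme of E8.5 and E9.5 heads, and all 3 genes were high in most libraries of E10.5 control neuroepithelium. A gene was called enriched where it was at least 2-fold higher than every other region of its stage and passed the test against each. Rspo1 was enriched in E8.5 mesenchyme, Rspo2 and Rspo3 in E10.5 control neuroepithelium, and no member in any E9.5 region, whereas 0.983%, 0.316% and 0.231% of all genes were enriched in 1 region of the E8.5, of the E9.5 and of the E10.5 samples. The lead over the next region was 2.82 for Rspo1 and 3.05 for Rspo3. For Rspo2 it was 1.11, and its enrichment ended under quantile normalization (0.72), without the widely spread arrays (1.00) and without control replicate 1, 2 or 4 or lateral nasal prominence replicate 1 or 4.

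Rspo1 had log2 ratios of 2.65, 2.79, 2.49, 2.69 and 3.36 in the 5 libraries of E8.5 mesenchyme. In the 13 neural epithelium libraries of that stage it had -0.44, -0.29, 0.15 and -0.68 (caudal), -0.61, -0.36, -0.35 and 0.85 (floor plate) and 1.43, -0.14, -0.65, -0.18 and -0.61 (non-floor plate). Every mesenchyme library lay above every neural one. The means were 2.79 ± 0.33 (SD, n = 5) in mesenchyme and -0.15 over the neural groups, a difference of 2.95 ± 0.42 (SE; 7.72-fold, limma adjusted p = 3e-07), and it passed under every alternative and with any 1 library left out. Rspo1 and Sfrp1 were the 2 members called in this comparison, in which 2.40% of all genes were called. The 6 endothelial markers, all measured, averaged 1.36 to 2.51 in the mesenchyme libraries and -0.48 to 0.13 in the neural ones, and 3 of 4 erythroid markers were also called higher. Their part in the result was not tested.

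At E9.5 Rspo1 was again highest in cranial mesenchyme and near or below the baseline in the arches. The 10 arch libraries had -0.44, -0.42, -0.70, -0.47 and -0.15 (mandibular) and -0.69, 0.10, 0.04, -0.38 and -0.53 (maxillary). The 6 cranial mesenchyme libraries ranged from 1.61 over a median of 2.57 to 3.31, all above every arch library. Rspo1 fell by 2.89 ± 0.42 on the log2 scale in the arches (means -0.36 in the arches and 2.52 ± 0.60 in cranial mesenchyme, SD, n = 6; limma adjusted p = 1.7e-06), and no alternative or omitted library ended the call. Rspo1 and Frzb were called here, against 0.933% of all genes. Both tissues held mesenchyme markers, at 1.59 to 2.58 in the arches and 1.81 to 3.05 in cranial mesenchyme. The 6 endothelial markers averaged 0.46 to 2.27 in the arches and 0.65 to 2.22 in cranial mesenchyme. The 5 jaw markers averaged 0.81 to 3.63 in the arches and -0.996 to -0.31 in cranial mesenchyme. The 8 neural epithelium markers averaged -0.80 to 0.12 in the arches and -0.90 to 1.13 in cranial mesenchyme (none called), beside 0.95 to 1.81 in E9.5 neuroepithelium. The part of these markers in the result was not tested.

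Neuroepithelium held intermediate and spread values of Rspo1 at E9.5, at -0.28, 3.25, 1.10, 1.18 and 1.96, which overlapped cranial mesenchyme. No member was called by limma between E9.5 neuroepithelium and cranial mesenchyme, where 1.15% of all genes were. Rspo1, Rspo3 and Sfrp1 were the 3 with an unadjusted p under 0.05, with differences of -1.08 ± 0.49, 1.23 ± 0.41 and 1.53 ± 0.50 and adjusted p of 0.56, 0.18 and 0.15. Within E9.5, Rspo1 in cranial mesenchyme passed against the otic vesicle, the ectoderm and both arches, and Rspo1 in neuroepithelium against the ectoderm and the mandibular arch.

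In E10.5 control neuroepithelium Rspo3, an R-spondin also needed for vascular development of the mouse placenta, had 5.08, 5.96, 1.31 and 5.42. Rspo2, needed for limb and craniofacial development in mice, had 2.56, 2.93, 0.00 and 2.47 there, and Rspo1 had 4.51, 3.27, -0.26 and 3.20. Replicate 3 was the lowest for all 3 genes, and the other 3 libraries were high for all 3.

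Under the nasal prominences Rspo2 and Rspo3 lay near the baseline. Rspo1 did so under the lateral prominence but not in every library under the medial one. Rspo3 had -0.21, 0.60, -0.04 and -0.14 in neuroepithelium under the medial prominence and -0.02, -0.15, -0.01 and 0.09 under the lateral one, all below every control library. It fell by 4.43 ± 0.42 relative to control neuroepithelium (21.5-fold; mean 0.01 under the prominences and 4.44 ± 2.12 in control neuroepithelium, SD, n = 4; limma adjusted p = 5e-13). Rspo2 had -0.36, -0.46, -0.32 and -0.25 under the medial and -0.27, -0.11, -0.20 and 0.02 under the lateral prominence, and fell by 2.23 ± 0.25 (adjusted p = 4.1e-10), with replicate 3 of the control inside the range of the prominence libraries. Rspo1 had 2.51, 2.17, 0.68 and -0.84 under the medial prominence, a spread that overlapped the lateral one, and -0.61, -0.17, -0.49 and -0.26 under the lateral one. Over both it fell by 2.30 ± 0.49 relative to control neuroepithelium (adjusted p = 0.0064), with overlap.

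These 3 were the members called between prominence and control neuroepithelium, where 0.296% of all genes were called. The 4 neuron markers averaged 2.65 to 3.11 under the medial and 0.20 to 2.53 under the lateral prominence, against 1.14 to 2.03 in control neuroepithelium (1 called higher), and their part in the result was not tested. The SE of each difference rests on a spread pooled over 22 groups. Fitted with the compared groups alone, where the spread among the control libraries weighs more, none of the 3 passed (adjusted p of 1, 0.47 and 0.22 for Rspo1, Rspo2 and Rspo3). Leaving out any 1 library kept the calls of Rspo2 and Rspo3, whose differences then ran from -2.90 to -1.92 and from -5.47 to -3.92. The call of Rspo1 ended without control replicate 1, 2 or 4 (adjusted p of 0.25, 0.062 and 0.08).

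Midline neuroepithelium gave the same contrast for Rspo2 and Rspo3 but not for Rspo1. Rspo3 had -0.19, -0.09, -0.06 and 0.00 at the midline, and fell by 4.53 ± 0.48 relative to control neuroepithelium (23.0-fold, limma adjusted p = 8.4e-11). Rspo2 had -0.43, -0.06, -0.11 and -0.05, and fell by 2.15 ± 0.29 (adjusted p = 1.9e-07). For both genes no midline library reached a control one. Rspo1 had 2.89, 3.68, 1.50 and 0.05 at the midline, and its difference of -0.65 from control neuroepithelium did not pass. Rspo2, Rspo3 and Sfrp2 were the members called, against 0.471% of all genes, and none of the 3 passed when the compared groups were fitted alone (adjusted p of 0.99, 0.68 and 0.11). Between neuroepithelium under the medial and under the lateral prominence no member was called by limma (0.176% of all genes were). Rspo1 alone had an unadjusted p under 0.05, with means of 1.13 ± 1.54 medially and -0.38 ± 0.21 laterally (SD, n = 4 each; adjusted p = 0.42).

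**Figure D3:**
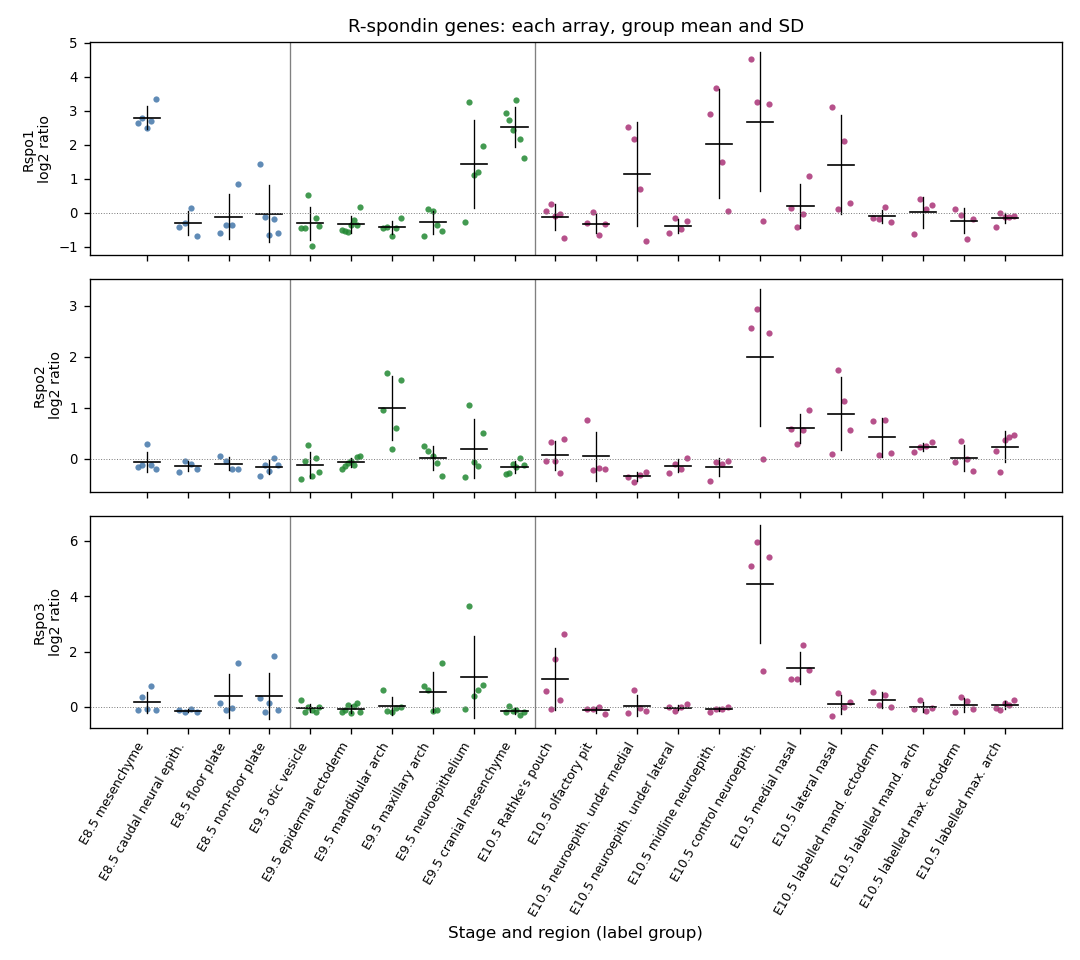
Log2 ratio (vertical axes) of Rspo1, Rspo2 and Rspo3 in every library (points), by group along the horizontal axis in order of stage, with the group mean (bar) and SD (line). Mesenchyme stands out for Rspo1 at E8.5 and E9.5, and 3 of the 4 control neuroepithelium libraries stand out for all 3 genes.

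In the order of E10.5 levels, Rspo3 stepped down from control neuroepithelium (4.44 ± 2.12) to medial nasal prominence (1.39 ± 0.58) and Rathke's pouch (1.02 ± 1.12), and Rspo2 from control neuroepithelium (1.99 ± 1.34) to lateral (0.88 ± 0.71) and medial nasal prominence (0.60 ± 0.28). For each gene only the first of the 11 steps between neighbours in this order passed the test, and for Rspo1 none of 11 did. Rspo1 was highest in control (2.68 ± 2.05) and midline neuroepithelium (2.03 ± 1.60), each of which passed against 8 of the other regions. Over all 10 genes 8 of 60 pairs of regions passed at E8.5 (13.3%), 16 of 150 at E9.5 (10.7%) and 85 of 660 at E10.5 (12.9%), beside 1.65%, 4.49% and 4.60% over all genes.

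The nasal prominences carried Rspo2 above the neuroepithelium beneath them. The medial nasal prominence had 0.58, 0.28, 0.57 and 0.96, and the lateral 0.10, 1.74, 1.13 and 0.57, all above the 8 neuroepithelium libraries. Rspo2 fell by 0.98 ± 0.20 in the neuroepithelium (limma adjusted p = 3.1e-04), a call that every alternative and every omitted library left in place. Rspo3 was at 1.00, 1.02, 2.23 and 1.32 in the medial and at -0.33, 0.52, 0.00 and 0.18 in the lateral nasal prominence, 2 groups that did not overlap. That difference of 1.30 ± 0.48 had an adjusted p of 0.31. Neither Rspo3 nor any other member was called by limma between medial and lateral nasal prominence, where 0.115% of all genes were. There, 3 members, Rspo1, Rspo3 and Axin2, had an unadjusted p under 0.05.

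The mandibular arch at E9.5 was the other site of Rspo2, at 0.96, 1.69, 0.19, 0.60 and 1.54, beside 0.26, 0.16, 0.05, -0.08 and -0.34 in the maxillary arch. The arches overlapped, and the difference of 0.99 ± 0.26 had an unadjusted p of 2.2e-04 and an adjusted p of 0.18, so that no member was called by limma between the arches (0.0702% of all genes were). The mandibular arch itself passed against the ectoderm, the otic vesicle and cranial mesenchyme for Rspo2 (differences of 1.07, 1.13 and 1.16). In the E9.5 epidermal ectoderm Rspo2 ran from -0.21 over -0.09 to 0.05 and fell by 0.58 ± 0.20 relative to the arches (adjusted p = 0.019). That call ended under quantile normalization (adjusted p = 0.19) and with the further E9.5 library of conflicting labels counted as ectoderm (0.07).

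Rspo2 and Rspo3 were higher in E10.5 control neuroepithelium than in E9.5 neuroepithelium, where stage and the region cut cannot be told apart. The other E10.5 neuroepithelium groups had lower means than E9.5 neuroepithelium. For Rspo3 these were -0.08 (midline), -0.02 (under the lateral prominence) and 0.05 (under the medial one), beside 1.08. For Rspo2 they were -0.16, -0.14 and -0.35, beside 0.20. E9.5 neuroepithelium had -0.36, 1.05, -0.07, -0.14 and 0.50 for Rspo2 and -0.08, 3.66, 0.41, 0.61 and 0.81 for Rspo3, with replicate 2 the highest for both and for Rspo1. Rspo2 was 1.79 ± 0.27 higher and Rspo3 3.36 ± 0.46 higher at E10.5 (limma adjusted p of 1e-05 and 6.6e-07), with overlap through control replicate 3 and E9.5 replicate 2. These 2 were the members called, against 0.426% of all genes, and neither passed with the compared groups fitted alone (adjusted p of 0.49 and 0.47). A change in a difference between tissues was also called for Rspo2, where stage and the regions cut cannot be told apart. The E9.5 arches did not enter it. Their Rspo2 means were 0.996 (mandibular) and 0.01 (maxillary), beside -0.16 in the cranial mesenchyme that did. Neuroepithelium under the prominences minus nasal prominences, set against E9.5 neuroepithelium minus cranial mesenchyme, differed by -1.34 ± 0.32 (limma adjusted p = 0.029, 0.356% of all genes called). This ended without the 4 libraries of conflicting labels (adjusted p = 0.17), with the compared groups alone (0.065) and without any 1 of 5 libraries, namely E9.5 cranial mesenchyme 1 or 2, E9.5 neuroepithelium 2 or 5 or lateral nasal prominence 2. The same test between E9.5 and E8.5 called no member (0.366% of all genes called), with 2 at an unadjusted p under 0.05.

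Among the inhibitors, Frzb changed most often. Its means were high in 3 of the 4 E8.5 groups and in the E9.5 arches, and low in E9.5 ectoderm and neuroepithelium. Sfrp1 was highest in neural tissue of E8.5 and under the E10.5 nasal prominences, with E9.5 neuroepithelium next. Dkk1 was high in parts of the E8.5 neural epithelium and in single libraries of the facial arches.

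Frzb, first described as an antagonist in cartilage and in the frog organiser, had 2.52, 2.74, 3.35, 2.89 and 2.30 in E8.5 non-floor plate neural epithelium. The floor plate had -1.16, 0.88, -0.60 and 0.34, all below every non-floor plate library. Frzb fell by 2.89 ± 0.59 in the floor plate (means -0.13 ± 0.92, SD, n = 4, and 2.76 ± 0.40, SD, n = 5; limma adjusted p = 0.0074) and was the only member called, against 0.181% of all genes. The call held with any 1 library left out, and ended with the 2 groups fitted alone (adjusted p = 0.21). E8.5 mesenchyme had 0.01, 0.92, 2.82, 2.88 and 2.23, and caudal neural epithelium 1.82, 0.92, 1.90 and 2.40.

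At E9.5 Frzb was lower in neuroepithelium and in cranial mesenchyme than in the E8.5 groups set against them. The E9.5 arches were not tested against E8.5 mesenchyme. Their Frzb means were 1.49 (mandibular) and 1.04 (maxillary), beside 1.77 in E8.5 mesenchyme. E9.5 neuroepithelium had -1.07, -0.63, -0.67, -0.41 and 0.40, with no overlap with E8.5 non-floor plate neural epithelium, and fell by 3.24 ± 0.55 (9.42-fold, limma adjusted p = 5.9e-05), a call that held with any 1 library left out. In E9.5 cranial mesenchyme Frzb ran from -1.05 over -0.75 to 1.15, and fell by 2.24 ± 0.53 relative to E8.5 mesenchyme (adjusted p = 0.0086), with overlap. The mesenchyme call ended without E8.5 mesenchyme replicate 4 (adjusted p = 0.065) and with the groups fitted alone (0.19). Frzb was the only member called in that comparison, against 1.53% of all genes. Dkk1 did not overlap there, at -0.82 to -0.39 in E9.5 cranial mesenchyme and 1.16 to 2.09 in E8.5 mesenchyme, with a difference of -2.14 ± 0.64 and an adjusted p of 0.071. Other cell types moved with stage in both comparisons: the 4 erythroid markers averaged -1.395 to -0.14 in E9.5 neuroepithelium and -5.00 to -3.62 in E8.5 non-floor plate neural epithelium (called higher for 3 of 4), and 0.20 to 1.03 in E9.5 cranial mesenchyme and -4.84 to -0.65 in E8.5 mesenchyme (4 of 4 called higher). The 8 surface ectoderm markers averaged -0.75 to 0.30 in E9.5 neuroepithelium and -0.06 to 1.33 in E8.5 non-floor plate neural epithelium (called lower for 1). Their part in these results was not tested.

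In the E9.5 arches Frzb was higher and uneven, at 2.85, 0.26, -0.09, 2.59 and 1.84 in the mandibular and 2.27, 0.94, 2.12, -1.24 and 1.11 in the maxillary arch. The 7 libraries of epidermal ectoderm lay within -1.22 to -0.78. Frzb fell by 2.28 ± 0.43 in the ectoderm (limma adjusted p = 8.1e-05), with overlap through maxillary replicate 4, and passed under every alternative and with any 1 library left out. Rspo2 and Frzb were the 2 members called between ectoderm and arches, where 37.0% of all genes were called, so that 2 of 10 is below the background. Against cranial mesenchyme Frzb was 1.73 ± 0.45 higher in the arches (adjusted p = 0.038), but this ended with any of 10 of 16 libraries left out (adjusted p up to 0.13) and with the compared groups alone (0.45). The otic vesicle was as low as the ectoderm, at -1.32 to -0.48, and no member was called between them by limma (0.391% of all genes were). Sfrp1 alone had an unadjusted p under 0.05 there, at -0.98 over 0.75 to 1.13 in the otic vesicle and -2.01 over -1.30 to 0.77 in the ectoderm (adjusted p = 0.14).

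At E10.5 the highest Frzb means were those of libraries labelled mandibular arch (0.54, 1.37, 2.05 and 1.199) and of midline neuroepithelium (1.42, -0.70, 2.41 and 0.96). Rathke's pouch was the lowest, at -1.34, -1.31, -1.01, -1.19 and -0.99. For Frzb, 5 of 66 pairs of regions passed. A single library labelled maxillary arch ectoderm stood far above its group, at 3.38 beside -0.87, -0.94 and -0.99.

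Sfrp1, which binds Wnt ligands and is known from the developing brain, was high in E8.5 neural epithelium, with 1.93, 1.77, 1.16 and 1.88 (caudal), 2.15, 2.53, 1.81 and 1.38 (floor plate) and 2.15, 1.69, 2.27, 1.89 and 2.30 (non-floor plate). Mesenchyme had 0.41, 1.15, -0.36, 0.16 and -0.22, every library below every neural one. Sfrp1 fell by 1.68 ± 0.43 in mesenchyme (limma adjusted p = 0.013), a call that ended without mesenchyme replicate 3 or 5 (adjusted p of 0.069 and 0.063). Sfrp2, its closest relative in the list, showed the same order with no overlap, at -1.27 to -0.08 in mesenchyme and 0.23 to 1.53 in neural epithelium, but its difference of -1.35 ± 0.42 had an adjusted p of 0.068.

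At E10.5 Sfrp1 was high in the neuroepithelium under the prominences. It had 1.47, 1.83, 1.11 and 1.07 under the medial and 2.34, 1.00, 2.07 and 1.48 under the lateral prominence. The nasal prominences had -0.33, -1.94, 0.15 and -1.08 (medial) and -1.57, -0.01, 0.65 and 0.43 (lateral), all lower. Sfrp1 was 2.01 ± 0.41 higher in the neuroepithelium (means 1.55 and -0.46, 4.02-fold, limma adjusted p = 2.9e-04), under every alternative and with any 1 library left out. Control neuroepithelium had a lower mean and was spread, at 1.62, -0.68, 0.45 and 1.31. It overlapped the neuroepithelium under the prominences, and the difference of 0.87 ± 0.50 was not called. Midline neuroepithelium had -0.36, 0.18, 0.42 and 0.85. At E9.5, neuroepithelium had 1.48, 1.49, 1.25, -0.36 and 1.97 (mean 1.165). The lowest mean of the 22 groups was that of Rathke's pouch, with -3.01, -2.19, -0.98, -2.25 and -2.53, the pouch being the oral ectoderm that forms the anterior pituitary. In the order of E10.5 means none of the 11 steps between neighbours passed, although 17 of 66 pairs did.

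Sfrp2 differed from Sfrp1 within neural tissue. Control neuroepithelium, with 1.24, 0.70, 1.93 and 1.85, held its highest mean of all 22 groups (1.43 ± 0.57, SD, n = 4), and replicate 3, the low library for the R-spondins, was the highest of the 4. The midline had -0.80, -0.76, -1.55 and -0.95, all lower, a difference of -2.45 ± 0.56 (limma adjusted p = 0.012). That call ended without control replicate 3 or 4 (adjusted p of 0.06 and 0.061) and with the 2 groups fitted alone (0.11). Over 22 group means Sfrp1 and Sfrp2 had a Pearson r of 0.693 and a Spearman rho of 0.649, a description over groups whose libraries may share embryos. The widest groups of Sfrp2 were E9.5 epidermal ectoderm, with 1 library at -3.76 and 6 others at -0.54 to 1.06, and otic vesicle, at -2.36 to 1.94.

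Dkk1, which blocks Lrp5 and Lrp6 and is needed for head formation in mice, had 3.21, 2.29, -0.05, 3.92 and 4.11 in E8.5 non-floor plate neural epithelium and -0.69, 3.14, 4.09 and 4.69 in floor plate. Each of these groups held 1 library near the baseline and the others far above it. Caudal neural epithelium had -0.70, -0.68, 1.05 and 0.64, and mesenchyme 1.16, 1.70, 1.81, 2.09 and 1.18. Dkk1 fell by 2.62 ± 0.71 in caudal relative to non-floor plate neural epithelium (limma adjusted p = 0.035), with overlap, and was the only member called, against 1.42% of all genes. The call ended without caudal replicate 1 or 2 or non-floor plate replicate 1, 4 or 5 (adjusted p of 0.14, 0.16, 0.084, 0.14 and 0.15) and with the 2 groups alone (0.28). Marker lists moved with it: the 8 surface ectoderm markers averaged -0.36 to 0.08 in caudal and -0.06 to 1.33 in non-floor plate libraries (none called), and 4 pituitary markers -0.23 to 0.01 in caudal and 1.27 to 2.47 in non-floor plate libraries (1 called lower). The 8 neural epithelium markers averaged 0.40 to 0.81 in caudal and 1.26 to 1.39 in non-floor plate libraries (1 called higher, 3 lower), and 5 otic markers 0.84 to 1.535 in caudal and -0.38 to 0.12 in non-floor plate libraries (2 called higher). Their part in the result was not tested.

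Dkk1 was lower in E9.5 neuroepithelium than in E8.5 non-floor plate neural epithelium, where stage and the region cut cannot be told apart. E8.5 caudal neural epithelium, not tested against E9.5, already had a mean of 0.08. E9.5 neuroepithelium had -0.90, 1.11, -0.54, -0.59 and -0.23 (mean -0.23). Dkk1 fell by 2.93 ± 0.67 relative to E8.5 non-floor plate neural epithelium (limma adjusted p = 0.0069), with overlap. It did not pass with the 2 groups fitted alone (adjusted p = 0.13). Dkk1 and Frzb were the 2 members called over this interval, where 1.06% of all genes were called, and the erythroid and surface ectoderm values given with Frzb belong to the same libraries. All 16 E10.5 neuroepithelium libraries of the 4 groups lay between -0.91 and -0.35.

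In the facial libraries Dkk1 was split within groups. Libraries labelled mandibular arch had 4.05, -0.25, 4.18 and -0.53, and those labelled maxillary arch 4.84, 1.90, -0.14, -0.27 and 0.54. Of the arrays with high values, mandibular 1 and 3 were among the 11 with a wide spread of log2 ratios (SD over 0.85), and maxillary 1 was not. The mandibular split was not particular to Dkk1. For Sfrp1, libraries 1 and 3 had -1.996 and -1.78, and 2 and 4 had 0.42 and 0.63. For Axin2 they had 0.40 and 0.36, against -0.35 and -0.17. Rspo1 and Rspo3 separated them more narrowly, and Rspo2, Lef1, Dkk2, Sfrp2 and Frzb did not. Between libraries, r was 0.529 for 1 and 3, 0.742 for 2 and 4 and 0.058 to 0.244 for the other mandibular pairs. The cause of the split was not tested. No member was called by limma in the comparisons between labelled mandibular and maxillary arch (0.772% of all genes called), nasal prominences and labelled maxillary arch (0.802%), labelled mandibular ectoderm and arch (0.135%) or labelled maxillary ectoderm and arch (0.0100%), with 1, 3, 1 and 1 members at an unadjusted p under 0.05. E9.5 maxillary arch had -0.89, -0.62, -0.62, -0.52 and -0.25 for Dkk1. Against it, the libraries labelled E10.5 maxillary arch were 1.96 ± 0.67 higher (limma adjusted p = 0.052). No member was called there, where 8.56% of all genes were called. At an unadjusted p under 0.05, a looser threshold than that of the 8.56%, there were 4 members. The olfactory pit and Rathke's pouch against labelled maxillary arch ectoderm called no member either (0.687% and 1.63% of all genes called), with 1 and 3 at an unadjusted p under 0.05.

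**Figure D4:**
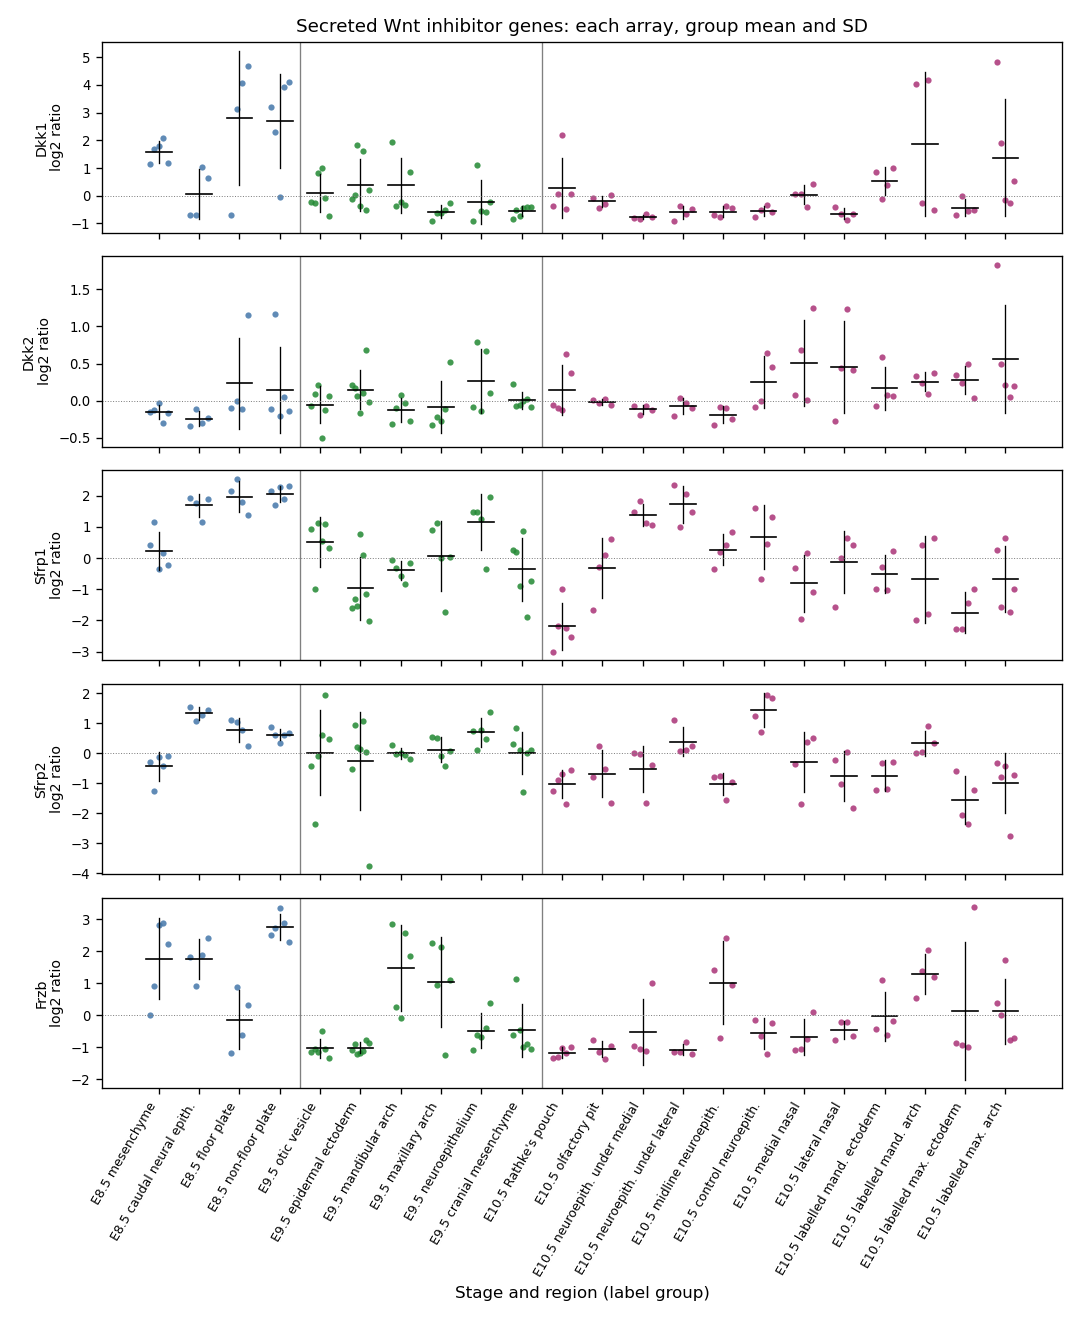
Log2 ratio (vertical axes) of Dkk1, Dkk2, Sfrp1, Sfrp2 and Frzb in every library (points), by group along the horizontal axis in order of stage, with the group mean (bar) and SD (line). Sfrp1 is high in the 3 E8.5 neural groups, in most E9.5 neuroepithelium libraries and under the nasal prominences at E10.5. Dkk1 is split within the labelled mandibular and maxillary arch groups.

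Dkk2, a Dickkopf that can inhibit or weakly activate the pathway in assays, moved least. It had 0.08, 0.69, 0.01 and 1.24 in the medial and -0.27, 0.44, 1.24 and 0.42 in the lateral nasal prominence, and -0.21 to 0.04 in the 8 libraries of neuroepithelium beneath. Dkk2 fell by 0.58 ± 0.18 in the neuroepithelium (limma adjusted p = 0.015), with overlap. The call ended without lateral nasal replicate 3 or medial nasal replicate 4 (adjusted p of 0.054 and 0.057), with the 4 libraries of conflicting labels left out (0.15) and with the compared groups alone (0.069).

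The group means of the targets spanned 1.47 (Lef1) and 0.89 (Axin2), less than those of the other members except Dkk2. Both spans were above the median of 0.80 over all genes. The promoters of the targets are shown because they, with Dkk1, are the members known from the literature as genes induced through β-catenin and TCF or LEF factors. RefSeq windows of 300 bases (build GRCm38.p6, 250 before to 50 after the annotated start, in the gene's own direction) were found for 7 of the 10 genes, 10 windows in all. They were searched on both strands for CTTTGAA and for the same letters ending in AT, TA or TT, the sequences a TCF or LEF factor is known to prefer, which cannot overlap one another on 1 strand. Of 32851 promoter windows in the table, 16.9% held at least 1 match and 1.94% held 2 or more. Dkk1 held 2, with first bases 117 and 98 before the start, 1 of the 4 Lef1 windows held 1 on the opposite strand with its first base 147 before the start, and the windows of Axin2, Dkk2, Frzb, Rspo1 and Sfrp2 and the other Lef1 windows held none. Matches are in capitals. The windows are chr19:30549447-30549746 on the minus strand for Dkk1, chr3:131156044-131156343 on the plus strand for Lef1 and chr11:108920099-108920398 on the plus strand for Axin2. For Lef1 the window shown is the 1 with a match and the furthest downstream. The Lef1 windows without a match, not shown, begin upstream of it at 131110047, 131110073 and 131112541.
Dkk1: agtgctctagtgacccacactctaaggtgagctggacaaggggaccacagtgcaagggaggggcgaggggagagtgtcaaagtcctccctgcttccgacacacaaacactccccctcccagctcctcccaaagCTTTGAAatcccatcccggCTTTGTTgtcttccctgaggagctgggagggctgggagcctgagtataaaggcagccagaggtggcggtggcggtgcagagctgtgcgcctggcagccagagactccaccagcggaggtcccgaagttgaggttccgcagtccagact
Lef1: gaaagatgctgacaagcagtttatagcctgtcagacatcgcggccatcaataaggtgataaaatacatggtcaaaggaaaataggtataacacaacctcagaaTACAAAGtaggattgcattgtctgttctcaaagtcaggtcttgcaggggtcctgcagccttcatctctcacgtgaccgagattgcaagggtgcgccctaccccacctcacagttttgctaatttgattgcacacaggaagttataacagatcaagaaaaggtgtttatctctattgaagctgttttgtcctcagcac
Axin2: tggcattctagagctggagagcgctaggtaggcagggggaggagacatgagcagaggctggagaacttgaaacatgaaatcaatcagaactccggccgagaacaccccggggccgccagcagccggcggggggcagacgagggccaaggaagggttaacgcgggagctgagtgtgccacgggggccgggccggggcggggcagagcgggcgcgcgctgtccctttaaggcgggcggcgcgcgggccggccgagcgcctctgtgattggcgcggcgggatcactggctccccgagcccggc

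Axin2 had 0.40, 0.71, 0.62 and 0.82 in the E10.5 medial nasal prominence, its highest group (mean 0.64 ± 0.18, SD, n = 4). The lateral prominence had 0.22, 0.09, 0.01 and -0.17, all lower, and the neuroepithelium beneath had -0.35, -0.23, -0.12 and -0.32 (medial) and -0.18, -0.12, -0.14 and 0.08 (lateral). Axin2 fell by 0.51 ± 0.11 in the neuroepithelium relative to the nasal prominences (1.42-fold, limma adjusted p = 7.1e-04), with overlap through the lateral prominence, and did not pass without the 4 libraries of conflicting labels (adjusted p = 0.066). Within E10.5 the medial nasal prominence passed for Axin2 against 5 regions, namely labelled maxillary ectoderm and the 4 kinds of neuroepithelium. The medial and lateral prominences did not overlap, with a difference of 0.60 ± 0.16 and an adjusted p of 0.081. At E8.5 caudal neural epithelium had 0.07, 0.20, 0.42 and 0.17 and non-floor plate neural epithelium 0.11, -0.16, -0.61, -0.11 and -0.28 (adjusted p = 0.21).

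Lef1 fell in the same comparison. The neuroepithelium under the prominences had -0.77, -0.01, -1.69 and -1.18 (medial) and -0.62, -1.07, -0.64 and -1.02 (lateral), and the nasal prominences -0.03, -0.01, 0.10 and 0.23 (medial) and -0.91, -0.16, -0.06 and -0.50 (lateral). The difference was -0.71 ± 0.27 (1.63-fold, limma adjusted p = 0.049), and it ended with any of 14 of 16 libraries left out (adjusted p up to 0.12), without the 4 libraries of conflicting labels (0.26), without the widely spread arrays (0.06) and with a variance trend and robust prior (0.055). Lef1 was highest at E10.5 in control neuroepithelium, at 0.68, -0.22, 0.38 and 0.31, and lowest in Rathke's pouch, at -1.05, -1.16, -1.44, -0.997 and -1.26, the 1 pair of E10.5 regions that passed for this gene (difference 1.47, adjusted p = 0.0025). Against control neuroepithelium, the midline libraries of Lef1 (-1.62, -0.86, -0.36 and -0.70) lay below without overlap, with an adjusted p of 0.24.

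Rspo2, Axin2, Lef1 and Dkk2 were thus lower and Sfrp1 higher in neuroepithelium under the prominences than in the nasal prominences, 5 of 10 members where 20.9% of all genes were called. The count was 2 without the 4 libraries of conflicting labels, with Rspo2 and Sfrp1 left, and 3 without lateral nasal replicate 3 or medial nasal replicate 4. The neural epithelium markers averaged 1.497 to 2.36 in these neuroepithelium libraries and -0.95 to 0.25 in the nasal prominences, and mesenchyme markers -0.92 to -0.58 in the neuroepithelium and 0.59 to 2.03 in the nasal prominences, and their part in the result was not tested.

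**Figure D5:**
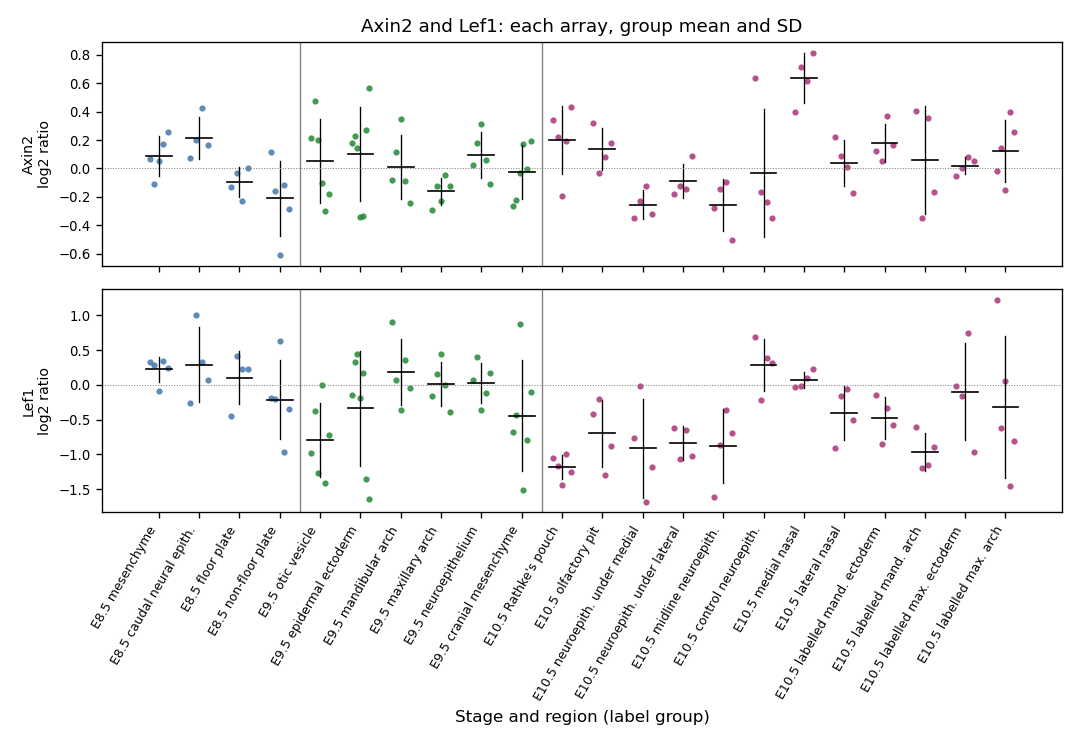
Log2 ratio (vertical axes) of Axin2 and Lef1 in every library (points), by group along the horizontal axis in order of stage, with the group mean (bar) and SD (line). Axin2 is highest in the medial nasal prominence, and Lef1 is lowest in Rathke's pouch.

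Further genes of the pathway were counted from 5 lists of 54 genes, 53 of them measured (Tcf7 was not). In caudal against non-floor plate neural epithelium 8 of 53 rose and 1 fell, where 1.42% of all genes were called. Among them were Fzd9, a Frizzled receptor (2.40), Tnfrsf19, a receptor induced by Wnt signalling (2.27), and Sp5, a transcription factor that is a direct target (2.21), whereas Fzd5 fell by 0.72. Notum, a secreted enzyme that inactivates Wnt ligands, rose by 2.14. In mesenchyme against neural epithelium at E8.5, 4 rose and 2 fell (2.40% of all genes called), with Sp5 (2.02), Nkd1, a feedback inhibitor (1.55), and Dkk3 (0.72) higher and Lrp6 (-0.54) and Sp8 (-0.52) lower. From E8.5 to E9.5 mesenchyme Sp5 fell by 3.18, Nkd1 by 2.72 and Tnfrsf19 by 1.10, and Cer1 by 0.70, with none higher (1.53% of all genes called). The difference between neural and mesenchymal tissue also changed between E8.5 and E9.5 for Sp5 (4.62), Nkd1 (3.30), Tnfrsf19 (2.93) and Apcdd1, a membrane inhibitor (2.17), where 0.366% of all genes were called. The median over the 8 target and feedback genes was 1.35 in that test and 1.18 in the caudal comparison, beside 0.02 over all genes in both.

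In neuroepithelium under the prominences against the nasal prominences 6 of 53 rose and 7 fell, a share near the 20.9% of all genes called. They were led by Ctnnb1, the gene of β-catenin (3.11), Tcf7l1, a TCF repressor (1.64), and Ccnd1, a cyclin (1.63), and by Bambi (-1.21), Ror2 (-0.55) and Fzd10 (-0.50). Between the E9.5 ectoderm and the arches 14 of 53 rose and 8 fell, again near the 37.0% of all genes called. They were led by Sostdc1, a secreted inhibitor of Wnt and BMP (1.60), Sp5 (0.87) and Fzd8 (0.75), and by Nkd2 (-1.46), Ctnnb1 (-1.43) and Bambi (-1.32). Sostdc1 fell by 3.48 in libraries labelled mandibular against those labelled maxillary arch at E10.5, and was 3.76 higher in those labelled maxillary arch than in the E9.5 maxillary arch. Of 80 such calls 5 passed under every alternative and every omitted library: Ctnnb1 in neuroepithelium against nasal prominences, Nkd2 in ectoderm against arches, Sp5 in the mesenchyme stages, and Sp5 and Tnfrsf19 in the difference of neural and mesenchymal tissue between E8.5 and E9.5.

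The genes whose 22 group means followed each member most closely are given as a description, since libraries of different groups may share embryos and the r can rest on few high groups. For Rspo3 they were Wnt8b (r = 0.910), a Wnt ligand of the developing forebrain, and Sh2d1a (0.888), which fell to 0.359 and 0.101 without control neuroepithelium. Rspo2 was followed by Lrmda (0.835) and Tfap2c (0.761), with 0.536 and 0.655 without control neuroepithelium. Rspo1 was followed by Nbeal1 (0.677) and Clvs1 (0.673), with 0.575 and 0.555 without E8.5 mesenchyme. Sfrp1 was followed by Dyrk3 (0.894) and Grtp1 (0.882), with 0.880 and 0.863 when its highest group was left out. For Sfrp2 the closest were Mif4gd (0.821) and Arv1 (0.798), for Frzb Nox4 (0.861) and Pck2 (0.843), for Dkk1 Plac8 (0.836) and Foxd4 (0.783), and for Dkk2 Top2a (0.779) and Sspn (0.777). Axin2 was followed by Ralgapa1 (0.821) and the receptor gene Fzd10 (0.802), with 0.614 and 0.790 without the medial nasal prominence. Lef1 was followed by Taf1d (0.750) and Wls (0.747), which encodes the carrier of Wnt ligands, with 0.738 and 0.717 without caudal neural epithelium. How often a pathway gene would be among the closest 2 of any gene was not computed. Among the members themselves the highest r was that of Rspo2 and Rspo3 (0.756, with a rho of 0.486) and the lowest that of Axin2 and Sfrp1 (-0.457).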

How the data were processed

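Per the labels' protocols, RNA of laser-captured cells (Zymo MicroPrep) went through NuGEN Ovation Pico amplification and biotin labelling onto Affymetrix whole-transcript arrays, and the submitters' processing notes name RMA, without a version, and mm9. The table deposited by the authors holds a linear ratio per probe set and sample. For each probe set the median over 21 of the samples is 1 within 6e-08. The step that made this baseline is not given in the sources used here. All 103 columns were mapped to samples and 0 were left unmapped. Of 28856 probe sets with values, the 21789 with 1 symbol gave 19938 genes, and for the 999 genes with several the probe set with the highest mean was kept. The smallest ratio, 0.01, was shared by 62 values, none of them in the 10 genes. No filter on dim genes was used, because a ratio is not a level.

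The log2 ratios of 102 samples were fitted as 22 group means with limma 3.58.1 in R 4.3.3 (80 residual degrees of freedom, eBayes), and calls needed an adjusted p under 0.05 (Benjamini-Hochberg, over all genes). Differences are first minus second group. The number of arrays limits the precision. A further E9.5 library, titled mandibular arch and otherwise labelled epidermal ectoderm, had no group and entered no comparison. The 10 genes, the pathway and marker lists and the tests were chosen with earlier results of these data known. By rule, the text gives every member, the 2 genes most alike in group means (predicted genes and olfactory receptors passed over) and, in the pathway, up to 3 called genes of each direction, some further pathway genes being named after their values were seen. Alternatives were the omission of each library in turn or of 11 widely spread arrays, a fit of the compared groups alone, with or without a block for replicate number, quantile normalization, a robust eBayes with variance trend, array weights, averaged probe sets and other placements of libraries with conflicting labels. Seeing the data led to 3 more: omitting 3 E10.5 groups whose markers go against their labels, omitting otic libraries 3 and 5, and averaging 2 similar libraries. Replicate numbers were taken to pair libraries only where every same-numbered pair exceeded r = 0.1, which no comparison met. E9.5 arches against cranial mesenchyme came near, with 8 of 10 pairs (median r of 0.19 for same and -0.058 for different numbers), as did the maxillary stages, with 4 of 5 (0.219 and -0.096).

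The fit was tested on simulated data with known changes before it was applied to the deposited values.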

Additional observations from a re-analysis of the deposited data

Results flagged for a closer look

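Of 220 sets of a gene and a group, 24 (10.9%) held a library far from the rest by Dixon's test, where chance gives about 1 in 20. For Rspo1 it was replicate 1 of the E8.5 non-floor plate libraries, at 1.43 beside others of -0.65 to -0.14. For Rspo2 they were E10.5 control neuroepithelium 3 (0.00, others 2.47 to 2.93), midline neuroepithelium 1 (-0.43, others -0.11 to -0.05), olfactory pit 1 (0.77, others -0.21 to -0.18) and E8.5 mesenchyme 3 (0.29, others -0.21 to -0.12). For Rspo3 they were floor plate 4 (1.60, others up to 0.13), non-floor plate 4 (1.83, others up to 0.33), E9.5 mandibular arch 2 (0.61, others up to -0.01) and E9.5 neuroepithelium 2 (3.66, others up to 0.81). Control neuroepithelium 3 was also the lowest of its group for Rspo1 and Rspo3.

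For Dkk1 it was Rathke's pouch 3 (2.18, others up to 0.06), and for Lef1 E8.5 mesenchyme 3 (-0.09, others from 0.24). Dkk2 had such a library in 5 groups, each time the highest, namely 1 of those labelled E10.5 maxillary arch (1.83), floor plate 4 (1.15), non-floor plate 2 (1.17), E9.5 cranial mesenchyme 1 (0.22) and E9.5 maxillary arch 5 (0.53). Floor plate 4 stood apart for both Rspo3 and Dkk2. For Sfrp2 they were neuroepithelium under the lateral prominence 1 (1.10), labelled maxillary arch 4 (-2.76), E8.5 mesenchyme 2 (-1.27) and E9.5 epidermal ectoderm 7 (-3.76). For Frzb they were neuroepithelium under the medial prominence 4 (1.01, others up to -0.96), labelled maxillary arch ectoderm 4 (3.38, others up to -0.87), E9.5 cranial mesenchyme 2 (1.15, others up to -0.44) and otic vesicle 4 (-0.48, others up to -1.04).

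For Rspo2, neuroepithelium under the prominences minus nasal prominences at E10.5 was set against neuroepithelium minus cranial mesenchyme at E9.5. The change was -1.34 ± 0.32 in a test of the difference itself (limma adjusted p = 0.029). The regions differ between the stages, and the call ended under several alternatives given above.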

How the results depend on the processing

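No call reversed. The 25 calls of single members include that of the changed neural minus non-neural difference. Of them 5 passed under every alternative and every omitted library, and 16 passed with any 1 library left out. Among the 5 were Rspo1 in E8.5 mesenchyme and in the E9.5 arches against cranial mesenchyme, and Frzb in E9.5 ectoderm against arches. The rest were Rspo2 and Sfrp1 under the nasal prominences. Of 735 recomputed counts of called members 659 stayed within 1.5 times. The cause of the changes below was not tested, except that fits of the compared groups alone hold fewer samples.

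Fitted alone, the counts fell to 0 for caudal and floor plate against non-floor plate neural epithelium and for prominence and midline against control neuroepithelium. They also fell to 0 for E10.5 against E9.5 neuroepithelium and for the E10.5 change of the neural minus non-neural difference. The counts were 1 for arches against cranial mesenchyme and for E9.5 against E8.5 neural tissue. With the replicate block added they were 0 for caudal, floor plate, midline, both neural stage comparisons and the mesenchyme stages, and 1 for arches against cranial mesenchyme and for ectoderm against arches, the adjusted p of Frzb being 0.056 for E9.5 against E8.5 neural tissue; the numbers did not meet the rule for pairing in any comparison, and no block could be fitted for comparisons with neuroepithelium under the medial prominence, whose replicate numbers come from no label. With array weights the counts were 1 for E9.5 neuroepithelium against cranial mesenchyme, E9.5 mandibular against maxillary arch, nasal prominences against labelled maxillary arch and labelled mandibular against maxillary arch, 2 for the mesenchyme stages and the maxillary stages, and 3 for labelled mandibular ectoderm against arch and the E10.5 difference. With quantile normalization they were 2 for E9.5 neuroepithelium against cranial mesenchyme, 1 for ectoderm against arches and the maxillary stages, 4 for the E10.5 difference and 1 for enrichment at E10.5. Without the widely spread arrays they were 2 for the mesenchyme stages, 1 for the maxillary stages and 1 for enrichment at E10.5. Without the 4 libraries of conflicting labels they were 2 under the nasal prominences against nasal and 0 for the E10.5 difference, with the further E9.5 library as ectoderm 1 for ectoderm against arches, and without the 3 E10.5 groups (added after the data were seen) 1 for arches against cranial mesenchyme and 2 for the mesenchyme stages.

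Leaving out 1 library gave 1 to 2 members in E8.5 mesenchyme, 0 to 1 in caudal neural epithelium, E9.5 neuroepithelium against cranial mesenchyme, mandibular against maxillary arch, otic vesicle, Rathke's pouch and the mesenchyme stages, 1 to 3 in arches against cranial mesenchyme, 3 to 5 under the nasal prominences, 0 to 2 in the maxillary stages and the E10.5 difference, and 1 to 2 in enrichment at E10.5. Ratios to an unknown baseline give no level or signal over background, so no dim filter was run, and groups of 4 to 7 arrays limit what can be detected.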

Other observations

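The E9.5 library titled mandibular arch and otherwise labelled epidermal ectoderm had log2 ratios of -0.32 for Rspo1, 0.94 for Rspo2, 0.05 for Rspo3, -0.21 for Axin2, -0.71 for Lef1, -0.69 for Dkk1, 0.02 for Dkk2, -0.80 for Sfrp1, -1.20 for Sfrp2 and 1.26 for Frzb. Its Rspo2 value lay within the range of the E9.5 mandibular arch (0.19 to 1.69) and above that of the epidermal ectoderm (-0.21 to 0.05). Its Frzb value lay within the mandibular range (-0.09 to 2.85) and above the ectoderm (-1.22 to -0.78).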
